A study of Homo sapiens with 40 samples.

Results

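The 10 genes described here encode the core of the transforming growth factor beta (TGF-beta) pathway and a gene it is known to induce. They are the ligands TGFB1 and TGFB2, the receptors TGFBR1 and TGFBR2, the signalling SMADs SMAD2, SMAD3 and SMAD4, the inhibitory SMADs SMAD6 and SMAD7, and TGFBI. They were chosen by name, as the 10 members of this list among 12557 genes tested, and each matched 1 Ensembl gene in the count tables. Earlier results of these data were known when they were chosen. Shares of all genes beside their counts are therefore a description and not a test. All 10 passed the filter on low counts. They were measured by sequencing total RNA from U2OS, an established human osteosarcoma cell line, which stably carried a doxycycline-inducible (TetOn) MYC gene. MYC is a transcription factor that is overexpressed in many tumours. The knockdown targets CTR9 and CDC73 both belong to the PAF1 complex, an elongation factor of RNA polymerase II.

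All cells had been infected with the hairpin vector pGIPZ and selected with puromycin. The 10 groups of 4 libraries each combined a treatment with a hairpin. Cells received doxycycline (Dox, 1 µg/ml) or its ethanol vehicle (EtOH) for 24 h. The hairpins were shCTR9 hairpin 3, shCTR9 hairpin 5, shCDC73 hairpin 3, shCDC73 hairpin 4 and the non-targeting shNTC. The labels do not say whether the 4 libraries of a group came from separate cultures, so the p-values measure the spread between these libraries, which may be technical. No group with Dox but without the MYC transgene was used here, so MYC induction and Dox itself cannot be told apart.

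TGF-beta ligands are secreted in latent form and, once active, bind the type II receptor TGFBR2, which recruits and phosphorylates the type I receptor TGFBR1. TGFBR1 phosphorylates SMAD2 and SMAD3, which bind SMAD4, enter the nucleus and regulate target genes. SMAD7 blocks the type I receptor and is itself induced by the pathway, and SMAD6 acts mainly against the related bone morphogenetic protein (BMP) branch. In osteosarcoma and other mesenchymal cells the pathway is known for its control of matrix production, growth and motility.

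The promoters of the 4 genes whose levels moved most between the groups are printed for the letters near their start sites that MYC and SMAD proteins are known to bind. Each window of 300 bases spans an annotated start and lies mostly before it, from RefSeq on GRCh38.p14, and all 10 genes had at least 1 window, 25 in all. The 3 motifs searched, on both strands, are in capitals: the E-box CACGTG, the palindromic SMAD element GTCTAGAC, and the short SMAD element CAGAC, whose reverse complement is GTCTG. The SMAD6 window lies at chr15:66701986-66702285 on the plus strand, the SMAD7 window at chr18:48950916-48951215 on the minus strand, the TGFB2 window at chr1:218345086-218345385 on the plus strand and the TGFBI window at chr5:136028738-136029037 on the plus strand.
SMAD6: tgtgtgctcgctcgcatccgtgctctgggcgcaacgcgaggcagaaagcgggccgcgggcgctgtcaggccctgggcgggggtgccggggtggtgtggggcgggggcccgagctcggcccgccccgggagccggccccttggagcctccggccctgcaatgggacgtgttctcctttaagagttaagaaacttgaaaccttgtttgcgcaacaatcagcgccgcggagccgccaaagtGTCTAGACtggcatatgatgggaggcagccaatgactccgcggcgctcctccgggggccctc
SMAD7: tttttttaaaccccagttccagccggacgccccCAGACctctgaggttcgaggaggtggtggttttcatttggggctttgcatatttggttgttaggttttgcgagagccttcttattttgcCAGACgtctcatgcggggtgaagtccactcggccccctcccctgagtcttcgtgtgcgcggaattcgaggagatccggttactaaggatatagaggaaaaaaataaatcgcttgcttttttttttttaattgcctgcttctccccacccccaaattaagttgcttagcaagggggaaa
TGFB2: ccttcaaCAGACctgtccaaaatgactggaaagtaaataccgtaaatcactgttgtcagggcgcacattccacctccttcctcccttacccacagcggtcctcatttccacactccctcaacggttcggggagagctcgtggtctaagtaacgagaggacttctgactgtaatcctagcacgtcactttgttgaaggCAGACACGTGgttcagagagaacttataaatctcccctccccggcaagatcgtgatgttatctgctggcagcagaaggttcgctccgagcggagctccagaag
TGFBI: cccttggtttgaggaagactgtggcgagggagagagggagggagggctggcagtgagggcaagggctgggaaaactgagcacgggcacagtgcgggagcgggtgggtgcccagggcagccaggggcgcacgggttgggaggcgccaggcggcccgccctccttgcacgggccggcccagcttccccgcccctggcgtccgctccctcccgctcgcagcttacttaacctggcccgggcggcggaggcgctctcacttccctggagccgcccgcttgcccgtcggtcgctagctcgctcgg
The SMAD6 window held the palindromic SMAD element at positions 239 to 246, counted from 1 at its 5′ end. This SMAD7 window, the first of its 3, held the short SMAD element at positions 34 to 38 and 123 to 127. In TGFB2 the short element at 198 to 202 overlapped the first base of the E-box at 202 to 207, and a further copy stood at 8 to 12. The TGFBI window held none of the 3 motifs. Among all 35116 windows of the table, 7.26% held the E-box, 0.2% the palindromic element and 45.26% the short element. The E-box was in windows of 2 of the 10 genes, TGFB2 and SMAD3, the palindrome in 1, SMAD6, and the short element in 4, TGFB2, TGFBR1, SMAD3 and SMAD7. Counted by window, as the shares of all windows are, these were 2, 1 and 10 of the 25 windows. A match describes the letters only and does not show that a protein binds there.

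The libraries held 877323 to 1532617 counts, so that 3 counts corresponded to 3.42 CPM (counts scaled to a library of 1e+06) in the shallowest and 1.96 CPM in the deepest. CTR9 stood at 23.5% to 27.7% of its shNTC level in the shCTR9 groups, and CDC73 at 22.3% to 32.4% in the shCDC73 groups. These CDC73 levels rested on 3 to 18 counts per library. CTR9 was higher in the shCDC73 groups, at 159.9% to 247.3% of its shNTC level. MYC averaged 8292 to 11573 CPM in the Dox knockdown groups and 14945 CPM in the Dox shNTC group, against 509 to 677 CPM in the EtOH groups. Of the mesenchymal and osteoblast markers, VIM, SPARC, COL1A1 and RUNX2 passed the filter on low counts, and COL1A2, ALPL and SP7 did not. Group means were 467.8 to 1027 CPM for VIM and 4.19 to 39.8 CPM for RUNX2. None of 5 blood markers and 1 of 5 epithelial markers (EPCAM, 5.70 to 9.58 CPM) passed the filter. In bulk RNA, fewer cells of a type and less RNA per cell cannot be told apart. In 3 libraries, EtOH shCTR9 hairpin 3 replicate 1 and EtOH shCDC73 hairpin 4 replicates 1 and 3, levels relative to the group mean fell most steeply with transcript length. Their slopes per log2 of length were -0.1839, -0.0987 and -0.1535, and the next was -0.0889, in Dox shCDC73 hairpin 3 replicate 1. The highest slopes, 0.1288 and 0.1234, were in EtOH shCDC73 hairpin 4 replicates 2 and 4, so that group split in opposite directions. Slopes taken from the mean of a group cannot show which of these pairs departed. Without the 3 libraries, that group rested on replicates 2 and 4. Each member's call that was gained or lost without the 3 libraries is given beside its result.

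At the resting level, in EtOH shNTC cells, TGFBI was the most abundant of the 10 genes per length, at 237 CPM per kilobase of median transcript and 158 CPM per kilobase of all exons. SMAD3 followed at 203 and 42.8, and SMAD4 was low on both scales, at 4.46 and 4.25. A protein-coding gene on the same strand, AC091551.1, shares exons with SMAD4 and had 0 counts over all libraries. The other 7 of the 10 genes lay between 9.60 and 29.3 CPM per kilobase of median transcript. On both scales TGFBI was first and SMAD3 second, and the order of the others depended on which length was used. Across the 10 group means, the highest CPM stood 3.34-fold over the lowest for TGFBI, 3.32-fold for SMAD6, 2.82-fold for TGFB2, 2.22-fold for SMAD7 and 1.97-fold for TGFB1. The receptors and signalling SMADs varied little, by 1.34-fold for SMAD3 to 1.40-fold for TGFBR1. Of the 9 steps between neighbouring group means in order, 3 were larger than both SDs beside them for TGFBI and SMAD6, 2 for TGFB2 and TGFBR2, 1 for TGFB1, TGFBR1, SMAD2, SMAD4 and SMAD7, and 0 for SMAD3.

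Differences were tested with edgeR's quasi-likelihood test on all 12557 genes, with Benjamini-Hochberg adjusted p-values, and a gene is said to have risen or fallen where the adjusted p was under 0.05. In shNTC cells, 5 of the 10 genes fell with Dox, TGFB2, TGFBR2, SMAD3, SMAD6 and TGFBI, and none rose, where 17.4% of all genes tested were called, 8.49% rising and 8.93% falling. In 7 of the 10, every Dox library lay below every EtOH library, against 11.6% of all genes. In both knockdowns TGFB2 and TGFBI fell with Dox, and no other member was called. Of all genes, 18.3% were called for Dox in shCTR9 cells (9.29% rising, 9.05% falling) and 17.5% in shCDC73 cells (9.29% rising, 8.24% falling).

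Knockdown changed 6 members in EtOH cells for each subunit. With shCTR9, SMAD6 and SMAD7 rose and TGFB1, TGFB2, TGFBR2 and TGFBI fell, beside 45.6% of all genes called (23.2% rising, 22.4% falling). With shCDC73, SMAD7 rose and TGFB1, TGFB2, SMAD2, SMAD3 and TGFBI fell, beside 49% called (24.4% rising, 24.6% falling). In Dox cells TGFBR1, SMAD3, SMAD6 and SMAD7 rose with shCTR9 and TGFB1, TGFB2, SMAD4 and TGFBI fell, beside 41.8% called (21.1% rising, 20.6% falling). With shCDC73 in Dox cells, TGFBR1, SMAD6 and SMAD7 rose and TGFB1 and TGFBI fell, beside 44.9% called (22.2% rising, 22.7% falling). Shares among all genes were thus large, and whether the number of members called departed from them was not tested. That number was largest with shCTR9 in Dox cells, where 4 of the 10 rose and 4 fell. The median log2 fold change of the 10 members lay between -0.34 (Dox in shNTC cells) and -0.01 (shCDC73 in Dox cells) over these 7 comparisons, against -0.02 to 0.02 for all genes tested.

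**Figure D1:**
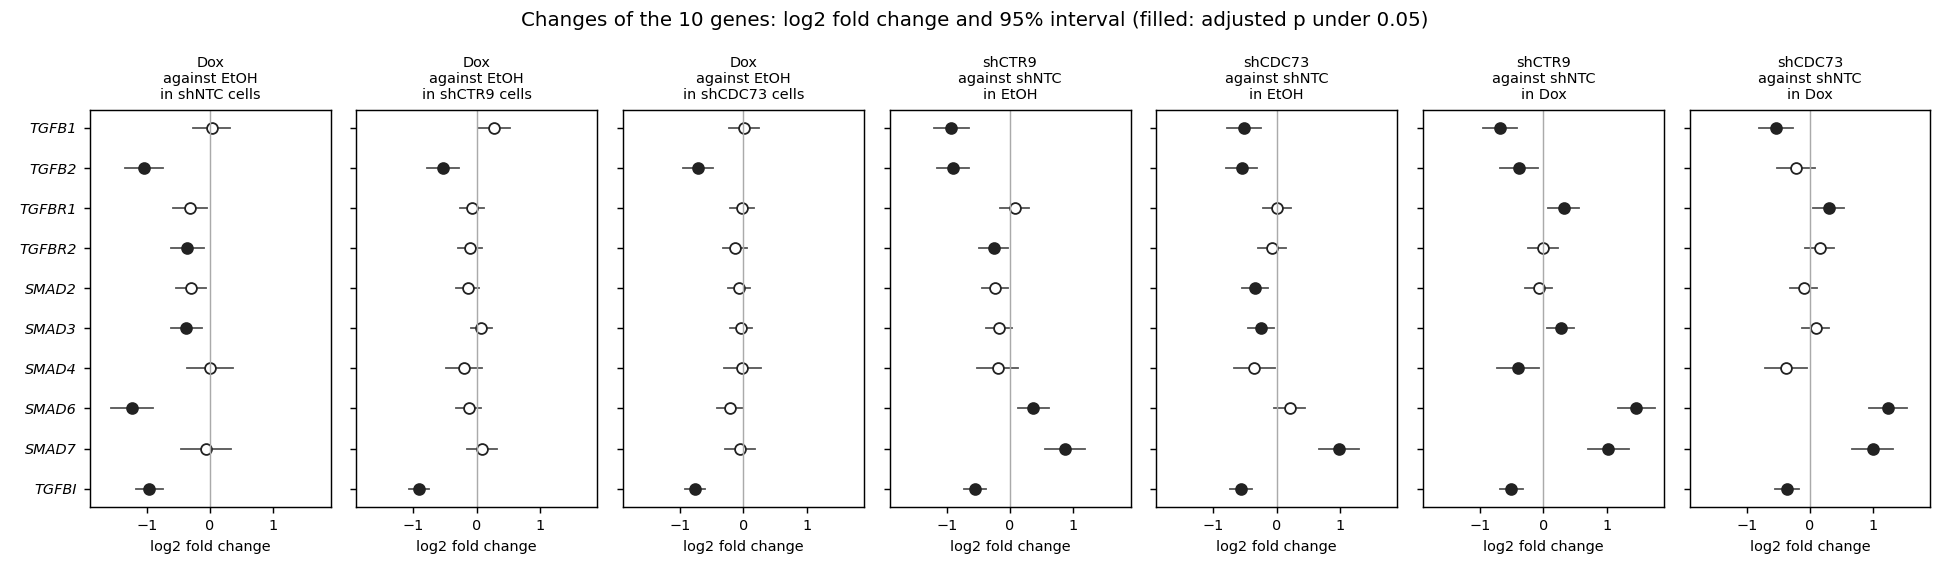
Log2 fold change of each of the 10 genes (x axis, log2 scale, lines are 95% intervals) in the 7 comparisons of Dox with EtOH and of each knockdown with shNTC. Filled points have an adjusted p under 0.05; SMAD7 lies to the right of 0 in all 4 knockdown comparisons, and SMAD6 reaches 1.47 with shCTR9 and 1.23 with shCDC73 in Dox cells.

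Of the ligands, TGFB1 fell with both knockdowns in both treatments and did not pass the test for Dox, while TGFB2 fell with Dox in all 3 backgrounds. TGFB1 encodes the most widely expressed form of the ligand. In EtOH cells it measured 47.2, 23.0, 32.7 and 32.7 CPM with shCTR9 hairpin 3, 35.9, 26.8, 28.6 and 39.98 CPM with shCTR9 hairpin 5, and 72.6, 47.5, 68.3 and 64.6 CPM with shNTC. All 8 shCTR9 libraries lay below the 4 shNTC libraries, the closest pair being 47.2 and 47.5 CPM. The shCTR9 difference was -0.93 ± 0.14 (log2 fold change ± SE, 95% interval -1.20 to -0.65; adjusted p = 2.13e-07). The EtOH shCDC73 libraries held 42.0, 43.3, 38.2 and 39.0 CPM with hairpin 3 and 44.2, 43.5, 54.9 and 51.0 CPM with hairpin 4. They overlapped with shNTC, whose lowest library had 47.5 CPM, and the log2 fold change was -0.52 ± 0.13 (adjusted p = 0.000998).

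In Dox cells TGFB1 had 38.3, 39.3, 40.9 and 37.2 CPM with shCTR9 hairpin 3, 45.1, 43.4, 42.4 and 34.1 CPM with hairpin 5, and 60.4, 74.9, 69.0 and 54.3 CPM with shNTC. With shCDC73 it had 51.8, 37.2, 50.1 and 46.1 CPM for hairpin 3 and 35.7, 39.4, 43.3 and 53.3 CPM for hairpin 4. All 16 knockdown libraries were lower than every Dox shNTC library, with log2 fold changes of -0.69 ± 0.13 for shCTR9 (adjusted p = 3.99e-05) and -0.53 ± 0.13 with shCDC73 (adjusted p = 0.000897). Each of the 4 hairpins alone gave a fall in both treatments, from -0.39 with shCDC73 hairpin 4 in EtOH (adjusted p = 0.0368) to -0.94 with shCTR9 hairpin 5 in EtOH. Dox against EtOH in shNTC cells left TGFB1 at a log2 fold change of 0.03 ± 0.15 (95% interval -0.26 to 0.32; adjusted p = 0.931). In shCTR9 cells that value was 0.27 ± 0.12 (adjusted p = 0.127), and without the 3 libraries of steep length dependence it was 0.38 and passed the threshold. Leaving out EtOH shCTR9 hairpin 3 replicate 1 alone also brought it past the threshold, at 0.37.

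TGFB2, which encodes a further ligand that needs a co-receptor for strong binding to TGFBR2, had 38.1, 54.5, 41.1 and 39.4 CPM in Dox shNTC libraries, against 81.0, 89.6, 89.4 and 95.6 CPM in EtOH shNTC libraries. The groups did not overlap, and the fold change was 2.06-fold lower with Dox (log2 -1.04 ± 0.15, 95% interval -1.34 to -0.74; adjusted p = 1.1e-06). In shCTR9 cells TGFB2 averaged 31.5 ± 0.792 and 34.6 ± 8.61 CPM with Dox for hairpins 3 and 5, against 40.2 ± 11.99 and 56.9 ± 6.64 CPM with EtOH (SD, n = 4 each). In shCDC73 cells it averaged 33.8 ± 4.31 and 40.2 ± 4.11 CPM with Dox for hairpins 3 and 4, against 53.6 ± 6.81 and 67.5 ± 11.9 CPM with EtOH. TGFB2 thus fell with Dox, with log2 fold changes of -0.53 ± 0.12 in shCTR9 cells (adjusted p = 0.0012) and of -0.71 ± 0.12 in cells with shCDC73 (adjusted p = 9.89e-06), with overlapping libraries for shCTR9 and none for shCDC73. With shCTR9 hairpin 3 alone the value was -0.34 ± 0.18 and did not pass (adjusted p = 0.257), while the other 3 hairpins gave -0.67 to -0.75. The differences between the knockdown and shNTC responses, 0.51 ± 0.20 for shCTR9 and 0.33 ± 0.19 for shCDC73, did not pass either (adjusted p = 0.293 and 0.634).

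In EtOH cells TGFB2 fell with each of the 4 knockdown hairpins, and every library of each lay below the lowest shNTC library of 81.0 CPM. The log2 fold changes were -0.90 ± 0.13 for shCTR9 (adjusted p = 9.37e-08) and -0.55 ± 0.12 with shCDC73 (adjusted p = 0.000195), with the smallest for shCDC73 hairpin 4 at -0.38 (adjusted p = 0.0293). In Dox cells the shCTR9 value was -0.39 ± 0.15 (adjusted p = 0.0323), and the call ended without either Dox shCTR9 hairpin 5 replicate 1 or Dox shNTC replicate 2 (-0.33 and -0.26). The shCDC73 value in Dox cells was -0.22 ± 0.15 (adjusted p = 0.226). An overlapping transcript on the same strand, TGFB2-OT1, shares exons with TGFB2 and had no entry of its own in the count tables.

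**Figure D2:**
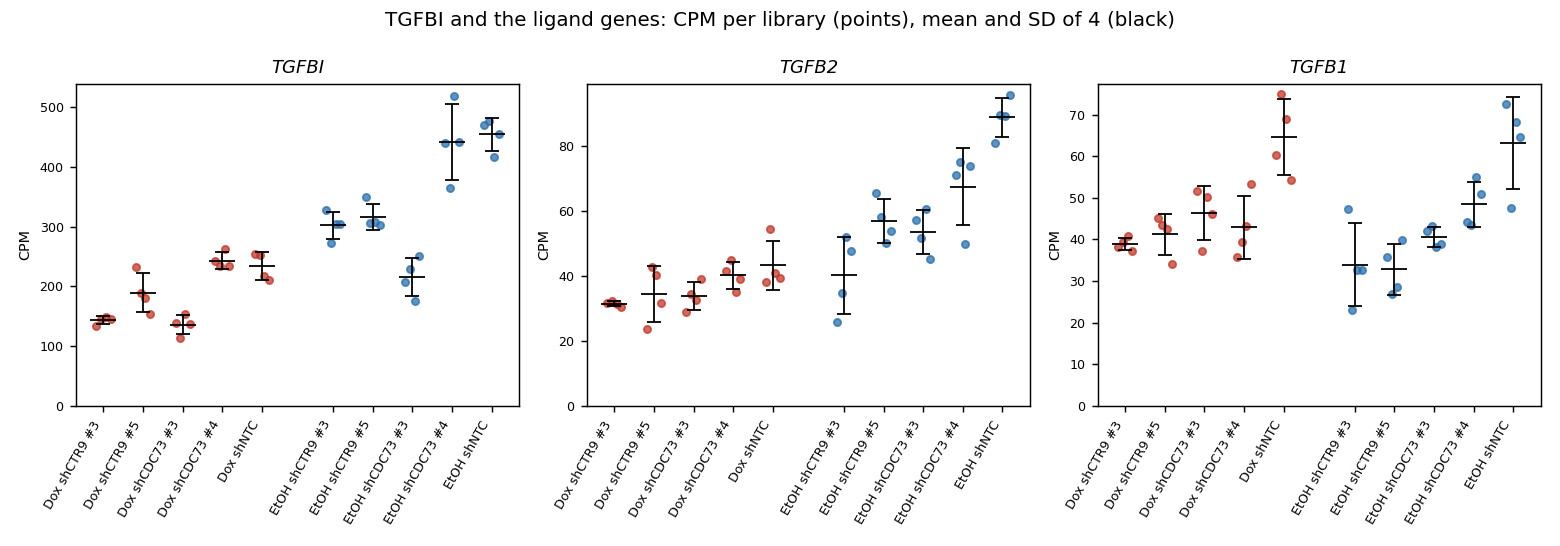
CPM of TGFB1, TGFB2 and TGFBI (y axis, CPM from 0) in each library of the 10 groups (x axis, Dox groups left of EtOH groups), with points for libraries and bars for mean and SD, n = 4. TGFB2 reaches 81.0 to 95.6 CPM in EtOH shNTC libraries, above every other library, and TGFBI is lowest with Dox and shCDC73 hairpin 3, at 114 to 155 CPM.

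The receptors moved little. TGFBR1, the type I receptor kinase, had 61.1, 72.4, 70.9 and 71.6 CPM in Dox shNTC libraries, against 85.3, 85.0, 81.5 and 91.4 CPM in EtOH shNTC libraries. These did not overlap, but the log2 fold change of -0.31 ± 0.13 did not pass the test (adjusted p = 0.102). In Dox cells TGFBR1 was higher with shCTR9 by 0.32 ± 0.12 (adjusted p = 0.0271) and with shCDC73 by 0.29 ± 0.12 (adjusted p = 0.0419), and the libraries overlapped with shNTC in both. Both calls stood near the threshold. The shCTR9 call ended without Dox shCTR9 hairpin 3 replicate 1 or 4, hairpin 5 replicate 3 or 4, or Dox shNTC replicate 1 (0.26 to 0.30), and the shCDC73 call ended without any of 9 of the 12 libraries, all but hairpin 3 replicates 1 and 3 and hairpin 4 replicate 2 (0.24 to 0.32). In EtOH cells TGFBR1 gave 0.08 ± 0.11 with shCTR9 (adjusted p = 0.613) and an interval of -0.22 to 0.23 with shCDC73 (adjusted p = 0.979).

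TGFBR2, the type II receptor that binds the ligand, had 87.0, 116, 108 and 112 CPM in Dox shNTC libraries, against 133, 132, 136 and 139 CPM in EtOH shNTC libraries, without overlap. Its log2 fold change was -0.36 ± 0.13 (adjusted p = 0.0466), a call that ended without any 1 of 7 of the 8 libraries, all but Dox shNTC replicate 2 (-0.39 to -0.27). With shCTR9 in EtOH cells it was lower, at -0.26 ± 0.11 (adjusted p = 0.0494), and that call ended without EtOH shCTR9 hairpin 3 replicate 1, hairpin 5 replicate 1 or 3, or any EtOH shNTC library (-0.28 to -0.21). By hairpin this value was -0.38 with hairpin 3, past the threshold, and -0.14 with hairpin 5, not past it. The other knockdown values over both hairpins did not pass the threshold. They were -0.07 ± 0.11 for shCDC73 in EtOH, -0.01 ± 0.12 for shCTR9 in Dox and 0.15 ± 0.12 for shCDC73 in Dox. By hairpin, shCDC73 in Dox gave 0.37 with hairpin 4, past the threshold (adjusted p = 0.027), and -0.07 with hairpin 3, not past it. Dox in shCDC73 cells gave -0.14 ± 0.09 (adjusted p = 0.337), and -0.28 without the 3 libraries of steep length dependence, past the threshold.

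SMAD2 and SMAD3, which the receptor phosphorylates, shifted by less than the ligands. SMAD2 had 75.5, 90.3, 72.8 and 85.8 CPM in Dox shNTC libraries and 109, 93.4, 99.9 and 99.0 CPM in EtOH shNTC libraries, without overlap but with an adjusted p of 0.0703 for a log2 fold change of -0.30 ± 0.12, and -0.30 past the threshold without the 3 libraries of steep length dependence. It fell with shCDC73 in EtOH cells, where it held 84.8, 83.2, 87.7 and 82.4 CPM with hairpin 3, 87.6, 77.9, 53.9 and 75.4 CPM with hairpin 4 and 109, 93.4, 99.9 and 99.0 CPM with shNTC. All 8 knockdown libraries lay below shNTC, with a log2 fold change of -0.34 ± 0.10 (adjusted p = 0.00517), though hairpin 3 alone gave -0.24 (adjusted p = 0.0801). The shCTR9 value in EtOH, -0.24 ± 0.10, stood near the threshold (adjusted p = 0.053) and passed it without any 1 of EtOH shCTR9 hairpin 3 replicate 4, hairpin 5 replicates 3 and 4, or EtOH shNTC replicate 2 (-0.31 to -0.26), and without the 3 libraries of steep length dependence (-0.22). In Dox cells neither knockdown passed, at -0.08 ± 0.11 and -0.10 ± 0.11.

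SMAD3 had 234, 249, 257 and 219 CPM in Dox shNTC libraries, against 289, 294, 321 and 336 CPM in EtOH shNTC libraries. Every Dox library was lower, with a log2 fold change of -0.37 ± 0.12 (adjusted p = 0.0247), and the call ended without Dox shNTC replicate 1 or 4 or EtOH shNTC replicate 3 or 4 (-0.36 to -0.32). In Dox cells it rose with shCTR9 by 0.28 ± 0.11 (adjusted p = 0.0326), with all 8 libraries between 277 and 312 CPM and above shNTC. That call ended without Dox shCTR9 hairpin 3 replicate 1, hairpin 5 replicate 3 or 4, or Dox shNTC replicate 1, 2 or 4 (0.23 to 0.29). The shCDC73 fall in EtOH, -0.25 ± 0.10 (adjusted p = 0.0399), ended without hairpin 3 replicate 3 or 4, hairpin 4 replicate 1 or 3, or EtOH shNTC replicate 3 or 4 (-0.25 to -0.18), and was -0.13 without the 3 libraries of steep length dependence. The lowest SMAD3 levels of all 40 libraries were in those same 3 libraries, at 171, 214 and 149 CPM. By hairpin, the shCDC73 value in EtOH was -0.41 with hairpin 4, past the threshold, and -0.09 with hairpin 3, not past it. A difference in Dox response between shCTR9 and shNTC cells of 0.45 ± 0.15 did not pass (adjusted p = 0.199), and was 0.37 without the 3 libraries, past the threshold. Dox in shCDC73 cells gave -0.04 ± 0.09 (adjusted p = 0.825), and -0.17 past the threshold without them. An antisense gene at SMAD3, AC087482.1, had 58 counts over all libraries, and the strand setting of the counting is not given in the sources used here.

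SMAD4, the partner shared by the TGF-beta and BMP branches, had 37.4, 39.1, 44.8 and 32.3 CPM in Dox shNTC libraries and 28.7, 36.0, 44.0 and 42.8 CPM in EtOH shNTC libraries. The groups overlapped fully, and the 95% interval of the Dox difference was -0.36 to 0.37 on the log2 scale (adjusted p = 0.994). Its 4 knockdown values were all negative, at -0.40 ± 0.16 for shCTR9 and -0.38 ± 0.17 for shCDC73 in Dox cells and -0.19 ± 0.16 and -0.35 ± 0.16 in EtOH cells. Of these only shCTR9 in Dox passed (adjusted p = 0.0482, the others 0.0596 to 0.334). That call ended without any 1 of 8 of the 12 libraries, all but Dox shCTR9 hairpin 3 replicate 1, hairpin 5 replicates 1 and 2, and Dox shNTC replicate 4 (-0.41 to -0.32). The shCDC73 values passed without Dox shCDC73 hairpin 3 replicate 4 (-0.47) or Dox shNTC replicate 4 (-0.44) or the 3 libraries of steep length dependence (-0.39), and without EtOH shCDC73 hairpin 3 replicate 1 (-0.42) or EtOH shNTC replicate 1 (-0.47).

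**Figure D3:**
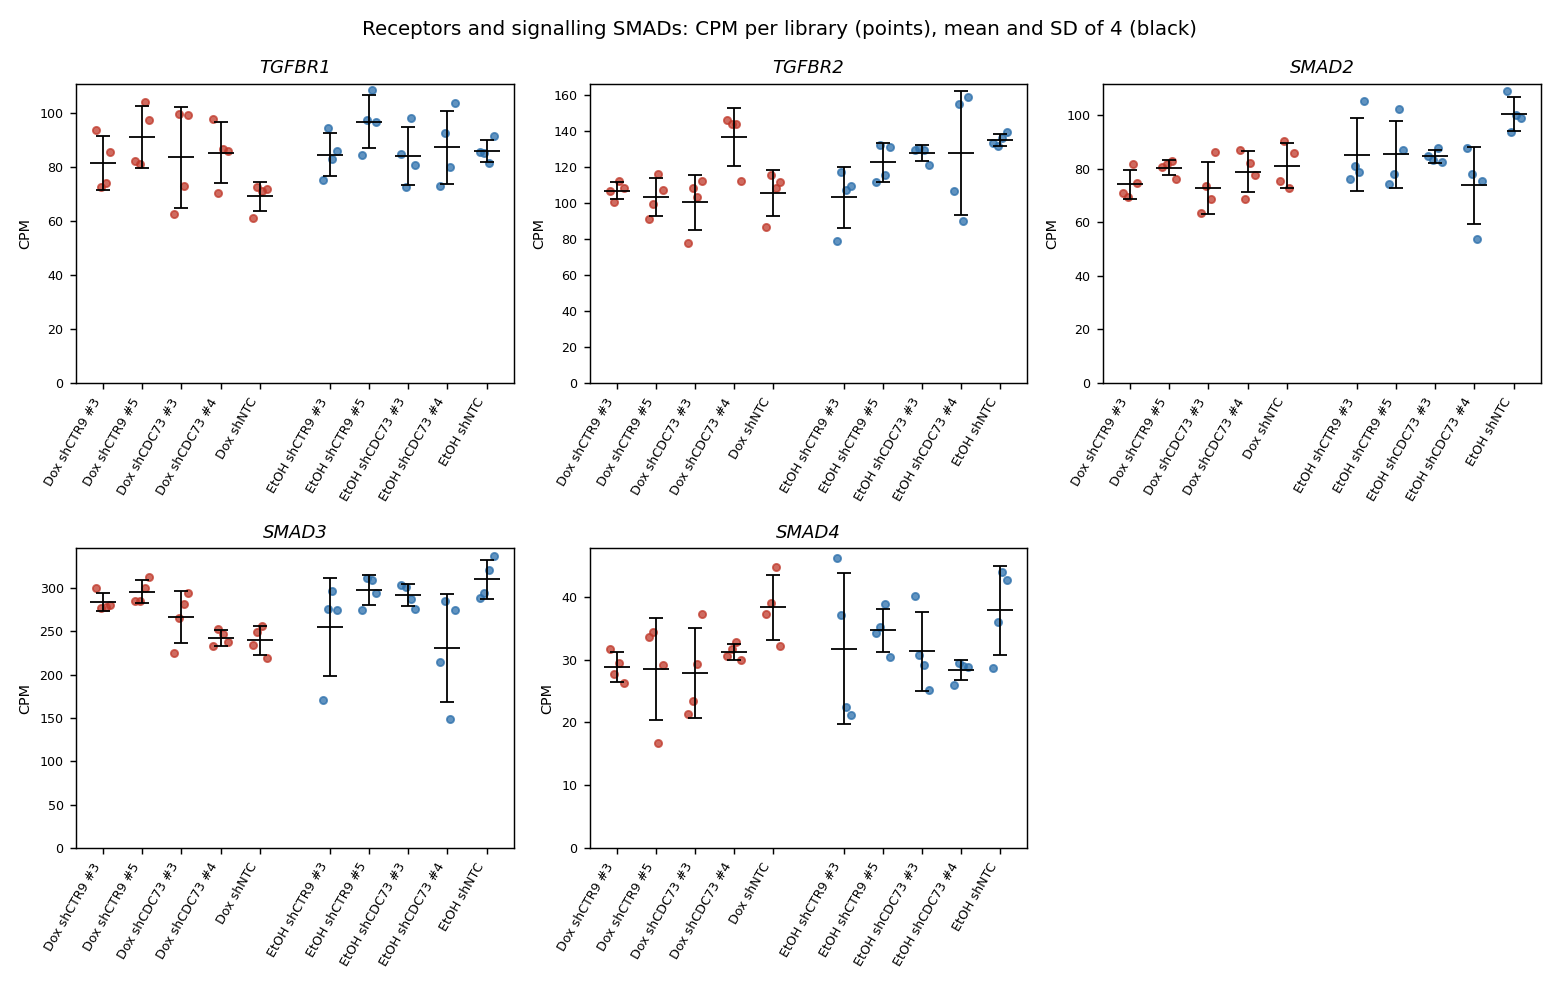
CPM of TGFBR1, TGFBR2, SMAD2, SMAD3 and SMAD4 (y axis, CPM from 0) in each library of the 10 groups (x axis, Dox groups left of EtOH groups), with points for libraries and bars for mean and SD, n = 4. The 5 genes stay within 1.34-fold to 1.40-fold between their lowest and highest group mean, and single low SMAD3 libraries stand at 149, 171 and 214 CPM.

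Of the inhibitory SMADs, SMAD6 fell with Dox in shNTC cells and SMAD7 rose with both knockdowns. SMAD6 was the sole member whose response to Dox differed past the threshold between knockdown and shNTC cells. It had 17.3, 29.3, 22.4 and 29.9 CPM in Dox shNTC libraries, against 55.7, 52.1, 70.3 and 52.0 CPM in EtOH shNTC libraries. All 4 Dox libraries were lower, with a 2.34-fold lower level (log2 -1.23 ± 0.16, 95% interval -1.56 to -0.90; adjusted p = 1.84e-07).

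In neither knockdown did SMAD6 pass the test for Dox over both hairpins. With shCTR9, hairpin 3 gave 56.2, 67.0, 67.5 and 71.1 CPM with Dox and 59.3, 83.8, 56.2 and 68.1 CPM with EtOH, and hairpin 5 gave 63.2, 76.4, 70.4 and 74.6 CPM with Dox and 95.2, 85.8, 79.7 and 67.8 CPM with EtOH. Dox and EtOH libraries overlapped for both hairpins, and the log2 fold change was -0.13 ± 0.10 (95% interval -0.32 to 0.07; adjusted p = 0.401). In shCDC73 cells hairpin 3 gave 51.8, 54.5, 61.0 and 62.6 CPM with Dox and 57.1, 64.9, 47.2 and 51.2 CPM with EtOH. Hairpin 4 gave 53.6, 54.1, 67.9 and 59.1 CPM with Dox and 67.7, 84.9, 87.1 and 84.2 CPM with EtOH. Over both hairpins the value was -0.21 ± 0.10 (95% interval -0.41 to -0.0028; adjusted p = 0.161), while hairpin 4 alone was lower with Dox, at -0.48 ± 0.14 (adjusted p = 0.0169).

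The same shNTC libraries served every comparison with shNTC, so values for both subunits and for each hairpin are not independent. The difference between the Dox responses was tested directly. It was 1.10 ± 0.19 on the log2 scale for shCTR9 minus shNTC (95% interval 0.72 to 1.49; adjusted p = 0.00105) and 1.02 ± 0.19 for shCDC73 minus shNTC (95% interval 0.63 to 1.41; adjusted p = 0.00288). SMAD6 was the sole member called in either, where 0.597% of all genes were called for shCTR9 and 0.47% for shCDC73. By hairpin the difference was 1.18 ± 0.22, 1.02 ± 0.21 and 1.29 ± 0.22 for shCTR9 hairpins 3 and 5 and shCDC73 hairpin 3, all called. For shCDC73 hairpin 4 it was 0.75 ± 0.22 and was not called (adjusted p = 0.192), and 0.0796% to 0.645% of all genes were called in these 4. No single library ended these calls, but without replicate 3 of every group the values were 0.90 and 0.81 and neither passed. Over all alternatives the value ran from 0.90 to 1.30 for shCTR9 and from 0.75 to 1.29 for shCDC73. MYC in the Dox knockdown groups stood at 55.5% to 77.4% of its Dox shNTC level, and the part of this in the SMAD6 difference was not tested.

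Set against shNTC within Dox cells, SMAD6 was 2.76-fold higher with shCTR9 (log2 1.47 ± 0.15; adjusted p = 1.13e-11) and 2.34-fold higher with shCDC73 (log2 1.23 ± 0.15; adjusted p = 2.1e-09). All 16 knockdown libraries, at 51.8 to 76.4 CPM, were above the 4 shNTC libraries, at 17.3 to 29.9 CPM. In EtOH cells the differences were small, at 0.36 ± 0.12 for shCTR9 (adjusted p = 0.0123) and 0.21 ± 0.12 with shCDC73 (adjusted p = 0.164), with overlapping libraries. The shCTR9 call in EtOH ended without EtOH shNTC replicate 2 or 4 (0.31 for each). By hairpin in EtOH, shCTR9 hairpin 5 and shCDC73 hairpin 4 rose, by 0.51 (adjusted p = 0.00318) and 0.48 (adjusted p = 0.00452). The other hairpin of each gave 0.22 and -0.07, neither past the threshold.

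SMAD7 rose with every hairpin in both treatments and showed no Dox difference past the threshold in any background. In Dox cells it had 63.5, 58.5, 58.9 and 54.2 CPM with shCTR9 hairpin 3, 57.4, 57.6, 52.5 and 39.7 CPM with shCTR9 hairpin 5 and 29.5, 38.2, 23.3 and 17.3 CPM with shNTC. With shCDC73 in Dox cells it had 63.3, 56.2, 46.8 and 59.99 CPM for hairpin 3 and 57.8, 48.7, 43.3 and 53.3 CPM for hairpin 4. Every one of these 16 knockdown libraries was above the highest Dox shNTC library of 38.2 CPM. The level was 2.03-fold higher with shCTR9 (log2 1.02 ± 0.16; adjusted p = 1.09e-06) and 1.98-fold higher with shCDC73 (log2 0.99 ± 0.16; adjusted p = 2e-06).

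In EtOH cells SMAD7 had 47.2, 63.8, 40.9 and 65.4 CPM with shCTR9 hairpin 3, 58.5, 50.6, 45.0 and 41.7 CPM with shCTR9 hairpin 5 and 22.8, 28.3, 28.3 and 34.4 CPM with shNTC. With shCDC73 in EtOH cells it had 73.2, 59.1, 58.4 and 50.3 CPM for hairpin 3 and 46.8, 65.2, 47.7 and 47.3 CPM for hairpin 4. Again no knockdown library reached down to the highest shNTC library, at 34.4 CPM. The log2 fold changes were 0.87 ± 0.16 for shCTR9 (adjusted p = 1.41e-05) and 0.98 ± 0.16 with shCDC73 (adjusted p = 1.15e-06), and the 8 values by hairpin and treatment ran from 0.79 to 1.11, all called, where 14.5% to 26% of all genes rose with a single hairpin. These 4 calls held under every alternative run. Libraries lay wholly above shNTC for 12.2% of all genes with shCTR9 and 10.6% with shCDC73 in EtOH, and for 13.1% and 12% in Dox. Dox itself gave -0.07 ± 0.20 in shNTC cells (95% interval -0.47 to 0.33; adjusted p = 0.874), 0.09 ± 0.12 in shCTR9 cells and -0.05 ± 0.12 in shCDC73 cells. In the order of its group means, the 8 knockdown groups, at 48.9 to 60.3 CPM, were followed by both shNTC groups, and the step of 20.5 CPM between them was the sole one larger than the SDs beside it.

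**Figure D4:**
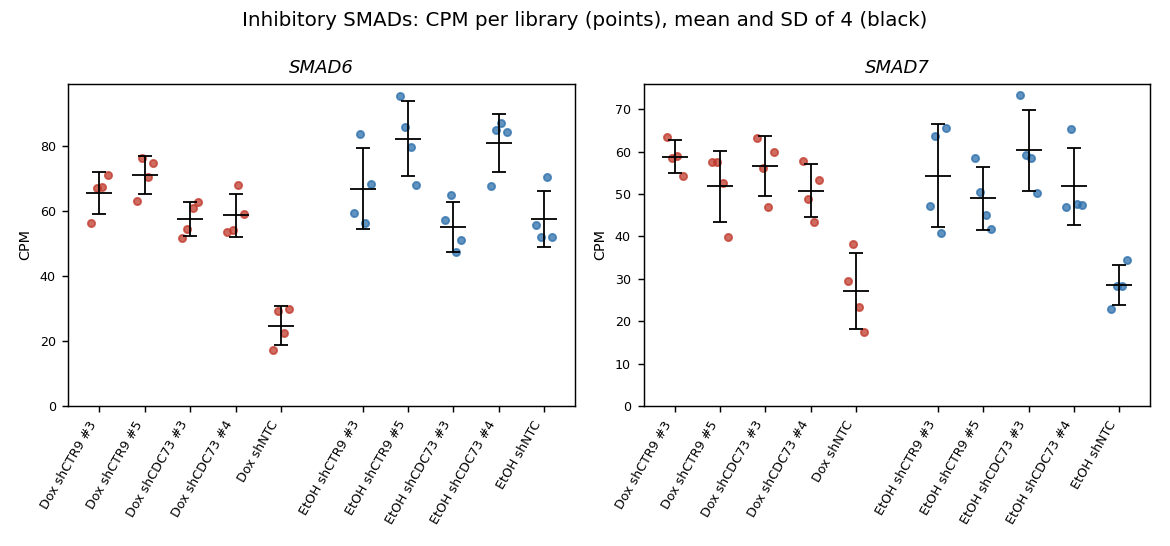
CPM of SMAD6 and SMAD7 (y axis, CPM from 0) in each library of the 10 groups (x axis, Dox groups left of EtOH groups), with points for libraries and bars for mean and SD, n = 4. SMAD6 is low in the Dox shNTC group, at 17.3 to 29.9 CPM, while SMAD7 is low in both shNTC groups, at 17.3 to 38.2 CPM.

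TGFBI encodes a secreted matrix protein that cells bind through integrins and that TGF-beta induces in many cell types. It fell with Dox in every background. In shNTC cells it had 255, 252, 217 and 210.2 CPM with Dox, against 471, 476, 417 and 455 CPM with EtOH, a 1.94-fold lower level without overlap (log2 -0.96 ± 0.10; adjusted p = 1.24e-09). With shCTR9 hairpin 3 it had 134, 146, 149 and 146 CPM with Dox and 328, 273, 305 and 305 CPM with EtOH. With shCTR9 hairpin 5 it had 233, 189, 181 and 154 CPM with Dox and 349.6, 306, 308 and 302 CPM with EtOH. Dox libraries were lower than EtOH libraries throughout, with a log2 fold change of -0.91 ± 0.08 over both hairpins (adjusted p = 3.23e-13).

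With shCDC73 hairpin 3 TGFBI had 139, 114, 155 and 137 CPM with Dox and 207, 229.8, 176 and 251 CPM with EtOH, and with hairpin 4 it had 242, 234, 263 and 234 CPM with Dox and 439.8, 365, 519 and 443 CPM with EtOH. Within each hairpin the Dox libraries lay below the EtOH libraries, but hairpin 4 with Dox reached 263 CPM, above hairpin 3 with EtOH, so the pooled groups overlapped. The log2 fold change was -0.76 ± 0.08 (adjusted p = 9.69e-11), and by hairpin the 4 knockdown values ran from -1.07 to -0.67, all called. The Dox response did not differ past the threshold from that of shNTC cells, at 0.05 ± 0.13 for shCTR9 (95% interval -0.21 to 0.31; adjusted p = 0.938) and 0.20 ± 0.13 for shCDC73 (95% interval -0.06 to 0.45; adjusted p = 0.69).

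Against shNTC in EtOH cells, TGFBI fell with both knockdowns, with log2 fold changes of -0.55 ± 0.09 (adjusted p = 7.95e-07) for shCTR9 and -0.56 ± 0.09 (adjusted p = 5.23e-07) for shCDC73. In Dox cells the value was -0.50 ± 0.09 (adjusted p = 1.69e-05) for shCTR9 and -0.36 ± 0.09 (adjusted p = 0.0012) for shCDC73, with overlapping libraries in both. The shCDC73 values averaged hairpins that differed from each other. Hairpin 3 gave -1.08 in EtOH (adjusted p = 3.36e-12) and -0.78 in Dox (adjusted p = 9.51e-08). Hairpin 4 gave -0.04 ± 0.10 in EtOH (95% interval -0.25 to 0.16; adjusted p = 0.759) and 0.05 ± 0.11 in Dox (95% interval -0.16 to 0.27; adjusted p = 0.745). The shCDC73 fall of TGFBI therefore rested on hairpin 3.

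**Figure D5:**
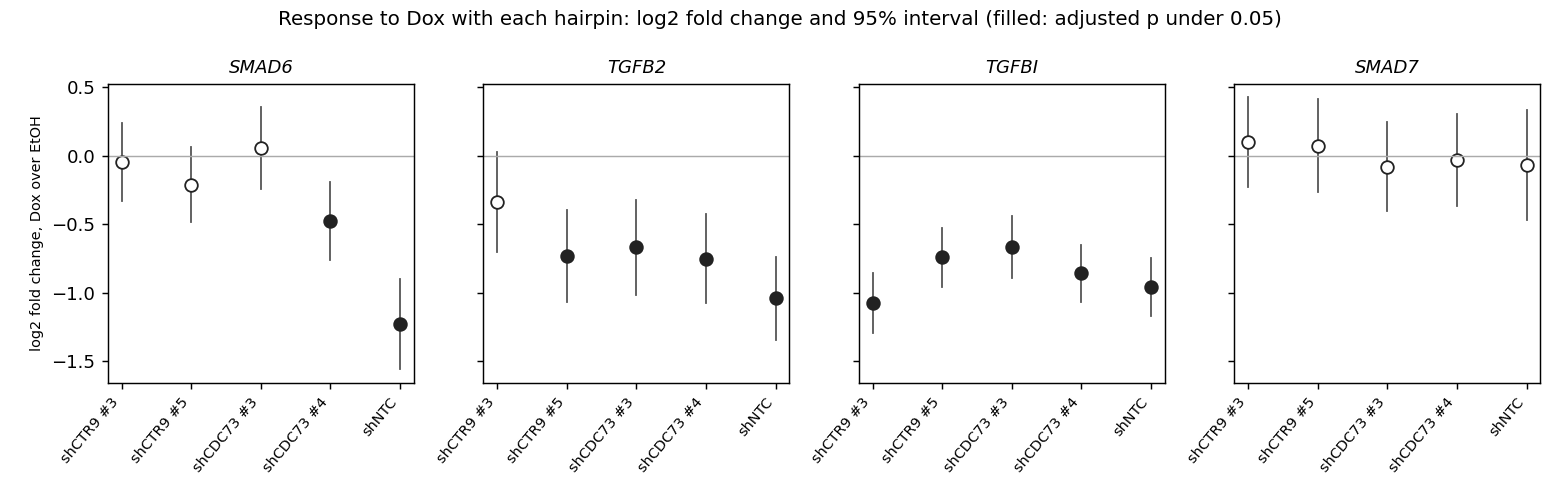
Log2 fold change of Dox over EtOH (y axis, log2 scale, lines are 95% intervals) of SMAD6, TGFB2, TGFBI and SMAD7. The x axis holds each of the 4 knockdown hairpins and shNTC, and filled points have an adjusted p under 0.05. SMAD6 is lowest in shNTC cells, at -1.23, while TGFBI is lower with Dox for every hairpin.

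The hairpins against the same subunit were also compared with each other. For CDC73, hairpin 4 gave more TGFBI than hairpin 3, by 1.03 ± 0.11 on the log2 scale in EtOH cells (adjusted p = 2.45e-10) and 0.84 ± 0.11 in Dox cells (adjusted p = 3.74e-07), without overlap in either. Hairpin 4 also gave more SMAD6 in EtOH cells, by 0.56 ± 0.14 (adjusted p = 0.00208), and more TGFBR2 in Dox cells, by 0.44 ± 0.13 (adjusted p = 0.0195), again without overlap. The TGFBR2 call ended without Dox shCDC73 hairpin 3 replicate 1 or hairpin 4 replicate 1 or 2 (0.33 to 0.42). SMAD3 was lower with hairpin 4 in EtOH cells, at -0.33 ± 0.12 (adjusted p = 0.0349). That call ended without hairpin 3 replicate 1, 2 or 3 or hairpin 4 replicate 1 or 3 (-0.33 to -0.16) and was -0.05 without the 3 libraries of steep length dependence. In EtOH cells TGFB2 passed without hairpin 4 replicate 3 (0.46) and without the 3 libraries (0.48), and TGFBR2, at 0.02 ± 0.13 with them (adjusted p = 0.941), passed without them at 0.31. These 3 members called in EtOH and 2 in Dox stand beside 31.2% and 13% of all genes.

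For CTR9, no member was called between hairpins 5 and 3 in either treatment, where 0.589% of all genes were called in EtOH and 0.279% in Dox. At an unadjusted p under 0.05 edgeR gave 2 members in EtOH, TGFB2 and SMAD6, and 1 in Dox, TGFBI, and DESeq2 called 0 in both. The widest values were 0.52 ± 0.17 for TGFB2 in EtOH (adjusted p = 0.14) and 0.40 ± 0.11 for TGFBI in Dox (adjusted p = 0.14), and the TGFBI value passed without the 3 libraries of steep length dependence, at 0.41. Between the knockdowns, shCTR9 gave less TGFB1 than shCDC73 in EtOH cells, at -0.41 ± 0.12 on the log2 scale (adjusted p = 0.0154), and less TGFB2, at -0.34 ± 0.11 (adjusted p = 0.0317), beside 14.9% of all genes called. The TGFB1 call ended without EtOH shCTR9 hairpin 3 replicate 2 (-0.33). The TGFB2 call ended without EtOH shCTR9 hairpin 3 replicate 1 or 2, hairpin 5 replicate 3, EtOH shCDC73 hairpin 3 replicate 3 or hairpin 4 replicate 2 (-0.33 to -0.27). TGFBR2 passed without EtOH shCDC73 hairpin 4 replicate 3 (-0.26) and without the 3 libraries (-0.27). In Dox cells no member was called between the knockdowns, beside 10.3% of all genes, while 2, SMAD3 and SMAD6, had an unadjusted p under 0.05 in edgeR and DESeq2 called 0. SMAD3 passed there without the 3 libraries, at 0.19. For TGFBI the averages over hairpins covered values of opposite sign. In EtOH cells, CTR9 hairpins 3 and 5 were at 0.49 and 0.55 against CDC73 hairpin 3 and at -0.54 and -0.48 against CDC73 hairpin 4, all 4 called, around an average of 0.01 ± 0.07 (adjusted p = 0.974). In Dox cells, CTR9 hairpin 3 against CDC73 hairpin 4 (-0.76) and CTR9 hairpin 5 against CDC73 hairpin 3 (0.48) were called, around an average of -0.14 ± 0.08 (adjusted p = 0.282).

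Other components of the pathway were taken from a list of 45 genes, of which 39 were tested. The list was drawn up with earlier results of these data known, so its counts are a description. With Dox in shNTC cells 4 rose and 3 fell, with a median log2 fold change of -0.08, where 17.4% of all genes were called. Among them the BMP ligands BMP6 and BMP2 rose by 1.59 ± 0.30 and 1.17 ± 0.21 (adjusted p = 9.21e-05 and 4.48e-05), and LTBP2, a matrix protein of the latent TGF-beta binding family, fell, at -0.88 ± 0.16 (adjusted p = 9.29e-05). BMP6 rose with Dox in shCTR9 cells too, by 1.64, and in shCDC73 cells, by 1.56. In EtOH cells 15 components rose and 6 fell with shCTR9 (median 0.07), and 16 rose and 5 fell with shCDC73 (median 0.17). Of all genes, 45.6% were called with shCTR9 (23.2% rising, 22.4% falling) and 49% with shCDC73 (24.4% rising, 24.6% falling), with medians of 0.02 and 0.01. GDF15, a distant member of the ligand family, rose by 1.73 ± 0.18 with shCTR9 (adjusted p = 4.04e-11) and 2.16 ± 0.17 with shCDC73 (adjusted p = 7.21e-15). LTBP2 fell, at -1.43 with shCTR9 and -1.58 with shCDC73. In Dox cells 15 rose and 7 fell with shCTR9 (median 0.05), and 15 rose and 6 fell with shCDC73 (median 0.14), beside 41.8% and 44.9% of all genes called. BAMBI, a decoy receptor that blocks signalling, rose by 1.905 ± 0.18 with shCTR9 (adjusted p = 1.73e-12) and 2.11 ± 0.17 with shCDC73 (adjusted p = 3.07e-14).

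A list of 40 genes known to respond to TGF-beta or BMP had 30 tested. This list too was drawn up with earlier results of these data known, so its counts are a description. With Dox in shNTC cells 2 rose and 12 fell, with a median log2 fold change of -0.38, against 8.49% rising, 8.93% falling and a median of -0.01 for all genes tested. Among those with the smallest p were TPM1, an actin-binding tropomyosin, at -1.29 ± 0.15 (adjusted p = 5.65e-09), and the matrix protein CCN1, at -0.81 ± 0.10 (adjusted p = 3.68e-08). With Dox in shCTR9 cells 2 rose and 13 fell (median -0.27), and in shCDC73 cells 2 rose and 8 fell (median -0.18), where 9.05% and 8.24% of all genes fell. In both, the transcription factor SNAI1 rose, by 1.28 and 1.19, and SPARC, a matrix protein, fell, at -0.46 and -0.45. The Dox response of LOXL2, a collagen cross-linking enzyme, differed from that of shNTC cells by 0.95 ± 0.23 with shCTR9 (adjusted p = 0.0378) and 1.00 ± 0.23 with shCDC73 (adjusted p = 0.0237).

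With shCTR9 in EtOH cells 6 of the 30 rose and 11 fell (median -0.07), and with shCDC73 7 rose and 10 fell (median -0.03), beside the 45.6% and 49% of all genes called. ID2, an inhibitor of differentiation factors that BMP signalling induces, rose by 2.58 ± 0.15 (adjusted p = 6.16e-20) and 2.84 ± 0.14 (adjusted p = 4.96e-22). SNAI1 rose by 1.84 and 2.19, while THBS1, a matrix protein that can activate latent TGF-beta, fell, at -1.64 ± 0.12 (adjusted p = 2.25e-16) and -1.67 ± 0.12 (adjusted p = 9.97e-17). In Dox cells 6 rose and 5 fell with shCTR9 (median 0.00), and 8 rose and 6 fell with shCDC73 (median 0.11), beside 41.8% and 44.9% of all genes called. CDKN1A, a cell cycle inhibitor, was among those that rose, by 0.89 and 1.08.

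For the 3 members with the widest range, the genes with the most similar group means were found by Pearson's r of log2 CPM over the 10 groups, as a description. TGFBI was followed most closely by SNX7, EVA1A and CYBC1, at r = 0.99, 0.99 and 0.98. TGFB2 was followed by SP140, TCF19 and KANK2, at 0.98, 0.97 and 0.96, and those near SMAD6 included PKIA and HMGN2, at 0.96 and 0.93. PKIA was scarce, with group means of 3.71 to 13.2 CPM. The r values were picked as the highest, and the group means behind them share the libraries and their depth.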

How the data were processed

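Total RNA was sequenced in 40 libraries from U2OS cells, and the deposited files hold raw counts per Ensembl gene, 1 file per library. Bowtie, HISAT2, edgeR and the build hg19 are named in the submitters' processing notes, without versions. The sources used here give neither their roles nor the annotation or strand setting. The 393 entries of the LRG type held 0 reads and were left out, and 63152 genes remained, of which 51662 carried a symbol (98.53% of reads).

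Counts were filtered by group (filterByExpr, minimum count 10, minimum total 15), which left 12557 genes with 98.65% of reads. They were scaled by TMM (factors 0.9226 to 1.0292) and fitted over all 40 libraries and 10 groups with edgeR 4.0.16 (R 4.3.3, limma 3.58.1) by robust quasi-likelihood, with no covariate. Hairpins of a subunit were averaged with equal weight. P-values are two-sided and adjusted by Benjamini-Hochberg over all genes tested in each comparison, with a threshold of 0.05. CPM use TMM-scaled library sizes. Libraries held a median of 1213230.5 counts. Precision covers counting error and the spread between libraries. The coefficient of variation beyond counting error was 11.36% at the common dispersion. Over 60 pairs of replicates, chi-square per degree of freedom was 1.061 to 9.037, so no pair agreed within sampling noise.

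The members and both lists were chosen with earlier results of these data known, and the 3 libraries left out together were known from an earlier analysis. Genes named were the 10 members, CTR9, CDC73, MYC, the 3 genes of each list with the smallest p in each comparison of Dox or a knockdown, and the 3 genes most like each of the 3 members of widest range. LOXL2 and BMP2 in the differences of Dox response were named after their values were seen. Some genes that this rule names are not reported here. DESeq2 1.42.0 and other scalings, filters, designs and left-out libraries were run as alternatives. The fit was tested on simulated data.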

Additional observations from a re-analysis of the deposited data

Results flagged for a closer look

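In 10 of 100 groups of 4 libraries tested, 1 library stood apart from the other 3 by Dixon's criterion, which chance alone gives in about 1 in 20 groups. TGFB2 was at 49.8 CPM in EtOH shCDC73 hairpin 4 replicate 3, against 71.1 to 75.1 CPM in its other libraries. TGFBR1 was at 61.1 CPM in Dox shNTC replicate 1, against 70.9 to 72.4 CPM. TGFBR2 was at 112 CPM in Dox shCDC73 hairpin 4 replicate 4, against 144 to 146 CPM, and at 121 CPM in EtOH shCDC73 hairpin 3 replicate 4, against 129 to 131 CPM. SMAD2 was at 105 CPM in EtOH shCTR9 hairpin 3 replicate 4, against 75.9 to 80.8 CPM. SMAD3 was at 299.8 CPM in Dox shCTR9 hairpin 3 replicate 1, against 277 to 280.1 CPM, and at 171 CPM in EtOH shCTR9 hairpin 3 replicate 1, against 275 to 296 CPM. SMAD6 was at 67.7 CPM in EtOH shCDC73 hairpin 4 replicate 1, against 84.2 to 87.1 CPM. SMAD7 was at 65.2 CPM in EtOH shCDC73 hairpin 4 replicate 2, against 46.8 to 47.7 CPM. TGFBI was at 349.6 CPM in EtOH shCTR9 hairpin 5 replicate 1, against 302 to 308 CPM.

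Other values differed between groups by a test of the difference itself. The log2 Dox response of SMAD6 was -0.13 in shCTR9 cells and -0.21 in shCDC73 cells, against -1.23 in shNTC cells, so that SMAD6 fell less with Dox in the knockdowns, with signed differences of 1.10 and 1.02. Between the knockdowns in EtOH cells, TGFB1 was at -0.41 and TGFB2 at -0.34 for shCTR9 against shCDC73. Between CDC73 hairpins 4 and 3 in EtOH cells, SMAD3 was at -0.33, SMAD6 at 0.56 and TGFBI at 1.03, and in Dox cells TGFBR2 was at 0.44 and TGFBI at 0.84. All these had an adjusted p under the threshold of 0.05, and the causes were not tested.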

How the results depend on the processing

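Of 43 calls of a member over 15 comparisons, 23 held under every alternative and 20 ended under at least 1. Of 107 values not called, 22 passed under at least 1. TGFBI reversed with hairpin 4 alone for shCDC73 in Dox cells (0.0545). For shCTR9 against shCDC73, TGFBI reversed in EtOH cells with CTR9 hairpins 3 and 5 against CDC73 hairpin 4 (-0.54 and -0.48) and in Dox cells with CTR9 hairpin 5 against CDC73 hairpin 3 (0.48), and TGFB2 in EtOH cells for that last pair (0.0904).

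Leaving out libraries or replicate numbers gave 3 to 5 members called for Dox in shNTC cells, 2 to 3 in shCTR9 cells and 2 throughout in shCDC73 cells. For shCTR9 and shCDC73 against shNTC they gave 4 to 7 and 5 to 7 in EtOH cells and 4 to 8 and 4 to 5 in Dox cells. Both differences of Dox response gave 0 to 1. Between the knockdowns they gave 0 to 3 in EtOH and 0 in Dox cells, and between CDC73 hairpins 2 to 3 in EtOH and 1 to 2 in Dox cells. Single hairpins gave 1 for Dox in shCTR9 cells (hairpin 3), beside 9.44% of all genes called. For shCTR9 in Dox cells either hairpin gave 5, beside 38.7% of all genes with hairpin 3 and 31% with hairpin 5. For the shCDC73 difference of Dox response hairpin 4 gave 0, beside 0.0796% of all genes. Between the knockdowns, CTR9 hairpin 3 against CDC73 hairpin 3 gave 1 in EtOH, and CTR9 hairpin 3 against CDC73 hairpin 4, and CTR9 hairpin 5 against CDC73 hairpin 3, gave 1 each in Dox cells.

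Without the 3 libraries of steep length dependence, 4 members were called for Dox in shCDC73 cells, 2 for the shCTR9 difference of Dox response, 1 between the knockdowns in Dox cells and 1 between CTR9 hairpins in Dox cells. Fitting only the groups compared gave 0 between the knockdowns in EtOH and 1 in Dox cells, and 1 between CTR9 hairpins in Dox cells, and no composition scaling gave 1 between the knockdowns in EtOH. Other scalings moved the median of all genes by at most 0.0497. Deviations of same-numbered libraries correlated over 0.1 in 42 of 180 pairs (median r 0.0454, against -0.0121 for different numbers, highest 0.5177), so that not every pair did, and the numbers were not taken to pair them, although 28 of 40 libraries had their highest mean r with their own number, a hint from the data and not the design. With the replicate block the counts of members called were 5, 2 and 2 for Dox, 7 and 6 for shCTR9 and shCDC73 in EtOH, 8 and 5 in Dox, and 1 and 1 for the differences of response. The block added SMAD2 for shCTR9 in EtOH cells (-0.24), as did RLE size factors (-0.24). At 11.36% variation between libraries beyond counting error, and 4 libraries a group, small shifts of the receptors and SMADs stood at the threshold.

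Counts over all genes moved by more than 1.5 times for the differences of Dox response, from 75 genes for shCTR9 and 59 for shCDC73 in the reported fit, to 131 and 93 with the replicate block, 154 and 120 without the 3 libraries, 35 and 19 with CTR9 hairpins 3 and 5 alone and 10 with CDC73 hairpin 4 alone. Fitting only the groups compared gave 27 for shCDC73. Single hairpins gave 1186 and 860 genes for Dox in shCTR9 cells (2304 with both), 881 with hairpin 3 for Dox in shCDC73 cells (2202) and 3670 with hairpin 4 for shCDC73 in Dox cells (5641). Between the knockdowns, only the groups compared gave 1024 genes in EtOH (1875 reported) and 1955 in Dox cells (1298), where the other settings ran from 333 to 2041. Between CTR9 hairpins, the block gave 183 in EtOH (74) and 54 in Dox (35), only the groups compared 0 and 105, and leaving out the 3 libraries 94 in Dox. Between CDC73 hairpins in EtOH cells (3920), leaving them out gave 2504 and only the groups compared 2113. The causes were not tested.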

Other observations

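Of the 30 known TGF-beta and BMP target genes tested, 11 were higher and 4 lower in EtOH cells with CDC73 hairpin 4 than with hairpin 3 (median log2 fold change 0.33), where 16.4% of all genes were higher and 14.8% lower. In Dox cells 7 were higher and 3 lower (median 0.13), where 5.86% of all genes were higher and 7.1% lower. BMP2 was the sole gene of the 39 other components called in a difference of Dox response, at -0.99 for shCDC73 minus shNTC cells (adjusted p = 0.0384). ID2 averaged 76.6 to 115 CPM over the 8 knockdown groups, against 16.4 CPM in Dox shNTC and 15.5 CPM in EtOH shNTC cells.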
